A study of Bos taurus with 6 samples.

Results

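The serpins and the genes of plasminogen activation are described here by 47 transcript clusters, the bovine gene array's unit for a gene. They are among 26773 in the deposited data, and shares over all transcript clusters include 82 reporter control rows. They were taken by name. Members were rows whose gene symbol belongs to the serpin clades A to I, together with PLAT, PLAU, PLAUR, PLG, F2R, F2RL1, F3, TFPI, TFPI2, THBD and PROCR. Among them are 36 transcript clusters of serpins, with 33 symbols, and 11 of the other genes, 1 for each. Of the 47 member rows, 45 carry a symbol that is also in the RefSeq annotation of the bovine assembly ARS-UCD2.0.

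RNA came from 6 cultures of primary bovine granulosa cells (GC), the steroid-producing cells that line the ovarian follicle. In 3 of them the cells had been plated at normal density and in 3 at high density, with 1 array per culture. No strain, genotype or age is given for the cows. All cultures, at either density, received FSH, androstenedione and IGF-1 in serum-free alpha-MEM, and culture lasted 9 days. Per the methods, the cells were pooled from small to medium follicles of abattoir ovaries and cryopreserved in fetal calf serum with DMSO before culture. The cyclicity of the cows was not defined, and the plates were coated with collagen. The labels number the cultures of each density from 1 to 3 but do not say whether equal numbers share a cell pool, so p-values measure the spread between these cultures. Below, the values of single cultures stand in the order of replicates 1, 2 and 3.

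Plasmin is the protease that dissolves fibrin and helps to open extracellular matrix. It is cut from plasminogen by tissue-type (PLAT) or urokinase-type (PLAU) plasminogen activator, the latter bound to its receptor PLAUR on the cell surface. Serpins are suicide inhibitors: the protease cleaves an exposed loop, the serpin changes shape and traps it. Some, such as SERPINE2 and SERPINB2, act on the plasminogen activators, others act on thrombin, plasmin or complement proteases, and still others have no protease target and serve as chaperones, hormone carriers or signals. In the ovary this system is known for the breakdown of the follicle wall at ovulation and for the remodelling of the forming corpus luteum.

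Values are log2 signals made by the authors with the RMA procedure, and differences are log2 fold changes of high minus normal density. A transcript cluster is termed called when limma gave an FC above 1.5 in size together with a p-value and an FDR below 0.05, the thresholds of the methods. Adjusted p-values are Benjamini-Hochberg values over all transcript clusters. Errors of group signals are SD (n = 3) and those of log2 fold changes standard errors (SE). The background level, the 95th percentile of the 82 reporter control rows, was a log2 signal of 4.62. With 3 cultures in each group the smallest two-sided p of an exact permutation test is 0.1, and this is its value for every member whose groups did not overlap. In RNA of a whole culture, a lower share of cells that express a gene and less RNA per cell cannot be told apart.

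At high density 10 members were up-regulated and 2 down-regulated. The rises were those of SERPINB2 (transcript cluster 12807673), SERPINB5, SERPINF1, F3, SERPINA14, SERPING1, PLAUR, SERPINI1, F2RL1 and SERPINB8, with log2 fold changes between 0.59 and 1.70. SERPINE2 fell by 1.296 on the log2 scale and SERPINC1 fell by 0.65. The called members were thus 12 of 47, 25.5%, where 7.49% of all transcript clusters of the array were called, 3.97% higher and 3.51% lower. Signals of the groups did not overlap for 25 members, 53.2%, against 37.3% of all transcript clusters. The median log2 fold change was 0.19 over the members and 0.02 over all transcript clusters.

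Many members gave weak signals. In 28 of the 47, 59.6%, both group means were at or below the background level, compared with 51.2% of all transcript clusters. Both group means were above it in 13, only that of high density in 4 (SERPINB2, SERPINF1, SERPINA14 and F2RL1) and only that of normal density in 2 (PLAU and F2R). For the 4 that passed it only at high density, the size of the rise is limited by the background at normal density.

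**Figure D1:**
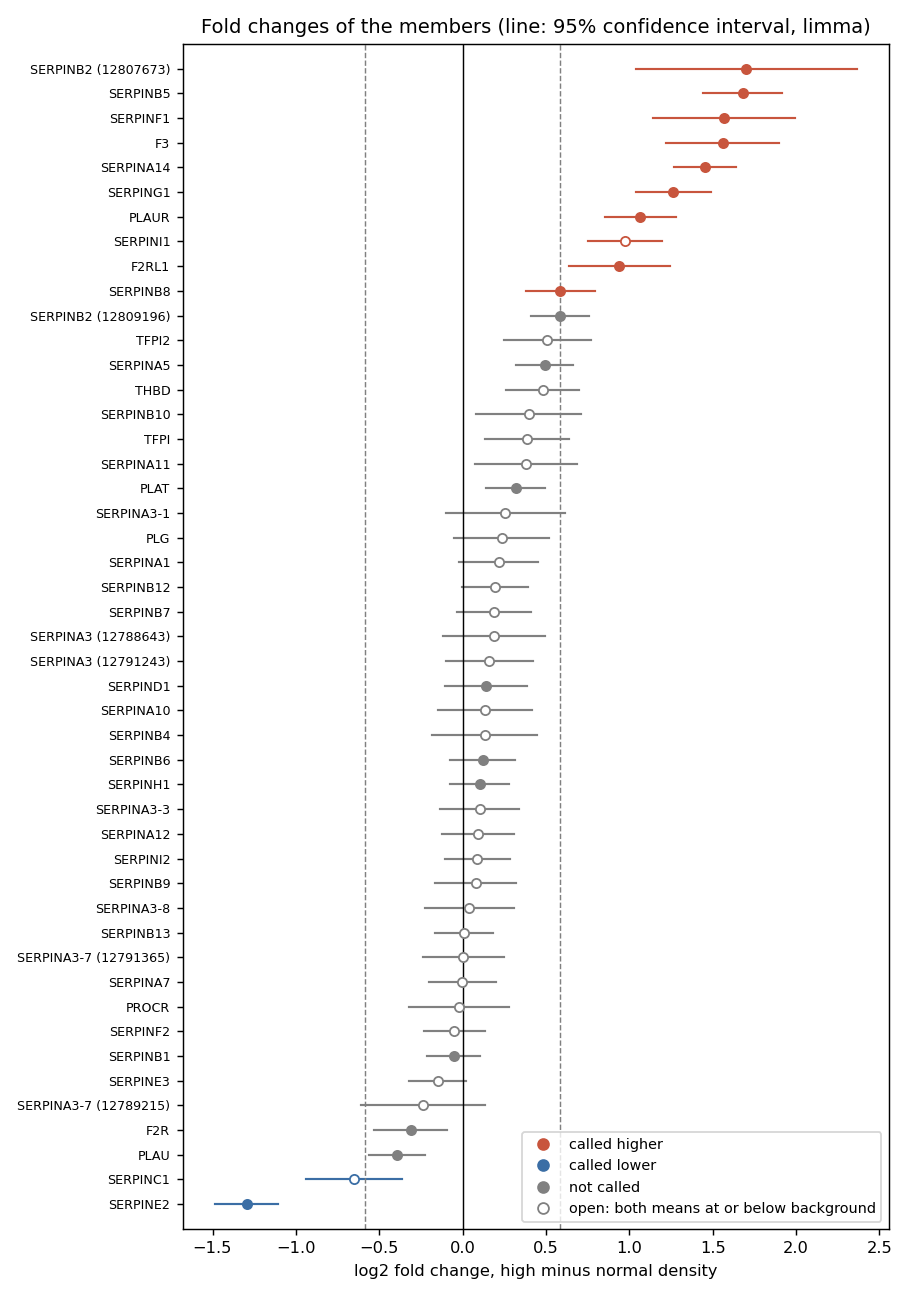
Log2 fold change (high minus normal density, x axis) of each of the 47 member transcript clusters, with limma's 95% confidence interval as a line and dashed lines at the FC threshold. Red marks the 10 called rises, blue the 2 called falls and grey the others, and open circles have both group means at or below the background level. Of the called members, SERPINB8 at 0.587 and SERPINC1 at −0.65 have intervals that reach across the threshold. So do several uncalled members, among them SERPINB2 (12809196) at 0.584.

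Among plasminogen and its activators, the receptor gene changed most. PLAUR, which holds urokinase at the cell surface, had signals of 7.18, 7.35 and 7.07 at normal density and of 8.34, 8.20 and 8.26 at high density. All high density cultures were above all normal density cultures. The log2 fold change was 1.07 (SE 0.09, adjusted p = 3.03e-04), an FC of 2.09.

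PLAT, the tissue-type activator, was well above background at both densities, with 10.11, 10.13 and 10.12 at normal and 10.54, 10.33 and 10.45 at high density. The groups did not overlap, but the log2 fold change of 0.32 (95% confidence interval 0.14 to 0.50, adjusted p = 0.0257) was below the FC threshold, so PLAT was not called. PLAU, the urokinase gene itself, lay close to the background level, with 4.78, 4.89 and 4.93 at normal density and 4.51, 4.48 and 4.44 at high density. Its log2 fold change of −0.39 (95% confidence interval −0.56 to −0.23, adjusted p = 0.00841) passed the FDR threshold and not the FC threshold. The signals of the enzyme's gene and of its receptor's gene thus differed in opposite directions, of which only the rise of PLAUR was called. PLG, encoding plasminogen, which is made mainly in the liver, had signals between 2.28 and 2.85 in all cultures, below the background level, and was not called (adjusted p = 0.235).

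Of the inhibitors of the activators, SERPINE2 was down-regulated, while SERPINB2 (12807673) and SERPINI1 were up-regulated. SERPINE2 encodes protease nexin 1, an inhibitor of thrombin and of plasminogen activators at the cell surface that is known from growing follicles. Its signals went from 10.69, 10.80 and 10.64 at normal density to 9.42, 9.50 and 9.32 at high density. All high density cultures were lower. The signal fell by 1.296 on the log2 scale (SE 0.08, adjusted p = 8.82e-05), an FC of 2.46 in size. The call held whichever culture was left out. SERPINE3, of the same clade, had group means of 3.81 and 3.66, below the background level, and a log2 fold change of −0.15 (adjusted p = 0.21).

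The table has a pair of transcript clusters named SERPINB2, the gene of PAI2, an inhibitor of urokinase. By their mRNA accessions RefSeq assigns 12807673 to SERPINB2 and 12809196 to the gene LOC281376, and it lists PAI2 as a synonym of both. Cluster 12807673 gave 2.77, 3.80 and 3.36 at normal density and 4.61, 5.38 and 5.04 at high density. The groups did not overlap, but the cultures of each density spread widely, with SD of 0.52 and 0.39. The log2 fold change of 1.70 (SE 0.28, adjusted p = 0.00578) was the largest among the members and also the least precise of the called ones, and it was measured against a normal density mean of 3.31, below the background level. The call was lost with the analysis of variance of the methods.

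Cluster 12809196 was far above the background level, with 10.36, 10.44 and 10.40 at normal density and 10.95, 10.93 and 11.08 at high density. The log2 change amounted to 0.584 (SE 0.07, adjusted p = 0.00169), just short of the FC threshold of 0.585 on the log2 scale, and it was therefore not called. It was called when normal density replicate 2, high density replicate 1 or high density replicate 2 was left out, with log2 fold changes of 0.604, 0.604 and 0.613, and also with array weights, with 0.625. Since the 2 genes are related, hybridization of 1 transcript to probes of the other cannot be judged from these values.

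SERPINI1, encoding neuroserpin, an inhibitor of PLAT best known from neurons, changed from 3.54, 3.60 and 3.53 to 4.50, 4.71 and 4.38. The log2 fold change was 0.97 (SE 0.09, adjusted p = 5.58e-04), and the rise was called although the group means of 3.56 and 4.53 both lay below the background level. SERPINF2, the gene of antiplasmin, the main inhibitor of plasmin in blood, was below background as well, with group means of 3.94 and 3.89 and overlapping groups (adjusted p = 0.718).

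**Figure D2:**
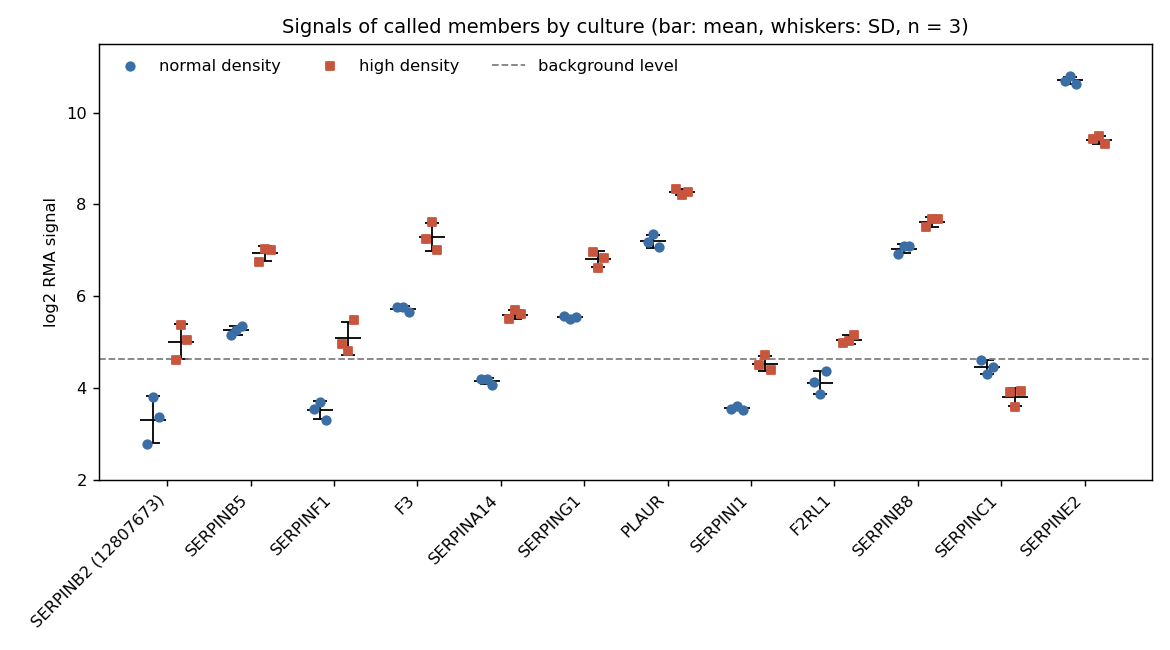
Log2 RMA signal (y axis) of the 12 called members in each of the 3 normal density cultures (blue circles) and 3 high density cultures (red squares), with black bars for the mean, whiskers for the SD and a dashed line at the background level of 4.62. The members are ordered by fold change, from SERPINB2 (12807673) at 1.70 to SERPINE2 at −1.296, and in no member do the groups overlap.

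Of the genes that start or restrain coagulation, the starter was up-regulated. F3 encodes tissue factor, the cell surface receptor that sets off clotting when it meets factor VII. Signals were 5.77, 5.76 and 5.67 at normal density and 7.25, 7.61 and 7.01 at high density. All high density cultures were higher, and they spread more (SD 0.30) than the normal density cultures (SD 0.06). The log2 fold change was 1.56 (SE 0.14, adjusted p = 4.50e-04), an FC of 2.95. Leaving out single cultures moved it to between 1.40 and 1.70.

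Its inhibitors gave weak signals. TFPI, the tissue factor pathway inhibitor, had 2.08, 2.14 and 2.12 at normal density and 2.30, 2.49 and 2.71 at high density. TFPI2, a related inhibitor of matrix and clotting proteases, had 2.97, 3.02 and 3.04 against 3.41, 3.76 and 3.37. For both, the high density cultures were higher and the FDR threshold was passed (adjusted p = 0.0443 and 0.0179), but the log2 fold changes of 0.39 and 0.51 were below the FC threshold and all signals below the background level.

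THBD, encoding thrombomodulin, which turns thrombin into an activator of protein C, had group means of 3.84 ± 0.15 and 4.32 ± 0.07 (SD, n = 3). Its log2 fold change of 0.48 (adjusted p = 0.012) was not called. PROCR, the protein C receptor, had group means of 3.44 and 3.42 and overlapping groups (log2 fold change −0.02, 95% confidence interval −0.32 to 0.28). Both genes are known from endothelium, and both stayed at or below the background level.

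The receptors that thrombin and related proteases cut differed. F2RL1, encoding the receptor PAR2, gave 4.12, 3.86 and 4.36 at normal density and 4.99, 5.02 and 5.16 at high density. It rose by a log2 fold change of 0.94 (SE 0.13, adjusted p = 0.00254), from below to above the background level. F2R, the thrombin receptor PAR1, gave 4.83, 4.79 and 4.85 against 4.35, 4.68 and 4.51. Here the high density cultures were all lower, but the log2 fold change of −0.31 (95% confidence interval −0.53 to −0.09) had an adjusted p of 0.0594 and was not called.

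Of the serpins that inhibit clotting enzymes, SERPINC1, encoding antithrombin, was down-regulated. It changed from 4.62, 4.31 and 4.45 to 3.90, 3.58 and 3.93, with both group means below the background level. It fell by 0.65 on the log2 scale (SE 0.12, adjusted p = 0.0099). The call was lost when normal density replicate 1 or high density replicate 2 was omitted, where the log2 fold changes were −0.58 and −0.54, and also with array weights (−0.58) and with the analysis of variance of the methods.

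SERPINA5, the protein C inhibitor, which also acts on urokinase, was above background, with 6.42, 6.56 and 6.55 against 7.06, 6.97 and 6.97. All high density cultures were higher, and the log2 fold change of 0.49 (95% confidence interval 0.32 to 0.66, adjusted p = 0.00355) was below the FC threshold. SERPIND1, heparin cofactor II, had 5.09, 5.09 and 5.02 at normal and 5.37, 4.99 and 5.25 at high density, and the groups overlapped (adjusted p = 0.41). SERPINA10, which acts on factor X, was below background at both densities, with group means of 2.26 and 2.39.

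SERPING1 encodes the C1 inhibitor, which controls the first proteases of complement and those of the contact system. It had signals of 5.58, 5.51 and 5.54 at normal density and of 6.96, 6.62 and 6.84 at high density. The high density cultures were all higher, with a log2 fold change of 1.26 (SE 0.10, adjusted p = 1.94e-04). The genes of its target proteases are not members but were on the list of related genes. Of these, MASP1 (log2 fold change −0.358), MASP2 (0.206), F11 (0.06), F12 (0.235) and KLKB1 (0.003) were not called. Except for MASP1, both their group means were at or below the background level. C1S was down-regulated, from 5.14, 5.11 and 5.17 to 4.28, 4.48 and 4.30, by 0.79 on the log2 scale (SE 0.08, adjusted p = 6.71e-04). C1R was called lower as well, with a log2 fold change of −0.60 (SE 0.08, adjusted p = 0.00229) and group means of 4.36 and 3.76, both below the background level, and its call was lost when normal density replicate 2 or 3 or high density replicate 1 was omitted.

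Of 5 serpins without a protease target 3 were up-regulated, where 3.97% of all transcript clusters were called higher. SERPINB5, encoding maspin, known as a tumour suppressor of epithelial cells, rose from 5.16, 5.26 and 5.34 to 6.74, 7.04 and 7.02. All high density cultures were higher by more than the spread within either density. Its log2 fold change was 1.68 (SE 0.10, adjusted p = 7.51e-05), an FC of 3.20, and it was the largest rise among the members that were above background at both densities.

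SERPINF1 encodes PEDF, known for its action against blood vessel growth. Signals were 3.55, 3.69 and 3.30 at normal density and 4.96, 4.80 and 5.47 at high density. All high density cultures were above the background level and all normal density cultures below it. The log2 fold change was 1.57 (SE 0.18, adjusted p = 0.00119).

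SERPINA14, the uterine milk protein, which is secreted by the endometrium of ruminants in pregnancy, had 4.19, 4.19 and 4.06 in the normal and 5.50, 5.70 and 5.60 in the high density cultures. It likewise passed the background level only in the latter. Its log2 fold change was 1.45 (SE 0.08, adjusted p = 5.04e-05), the lowest adjusted p among the members.

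SERPINH1, the collagen chaperone HSP47, gave strong signals with group means of 9.85 ± 0.06 and 9.95 ± 0.09 (SD, n = 3). The groups overlapped, and the log2 fold change was 0.10 (95% confidence interval −0.08 to 0.28, adjusted p = 0.405). SERPINA7, the thyroxine-binding globulin, had group means of 1.70 at both densities, far below the background level.

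Among the other serpins, 18 symbols on 20 transcript clusters, only SERPINB8 was called. This is 5.0% of them, near the 7.49% of all transcript clusters. SERPINB8, an intracellular serpin known to inhibit furin, rose from 6.92, 7.10 and 7.10 to 7.50, 7.69 and 7.68. The groups did not overlap, and the log2 fold change of 0.587 (SE 0.09, adjusted p = 0.00376) was just inside the FC threshold. The call was lost without normal density replicate 1, high density replicate 2 or high density replicate 3, with log2 fold changes of 0.529, 0.553 and 0.558, and when each array was shifted to the same median, with 0.544.

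SERPINB6 and SERPINB1, which protect cells from proteases of their own granules and lysosomes, were above background and not called. SERPINB6 had group means of 9.90 ± 0.02 and 10.02 ± 0.13 (SD, n = 3) and a log2 fold change of 0.12 (95% confidence interval −0.08 to 0.32). SERPINB1 had 5.43 ± 0.06 and 5.37 ± 0.03 and a log2 fold change of −0.05 (95% confidence interval −0.21 to 0.10). For the remaining 17 transcript clusters of this group, both means were at or below the background level and none was called. They include 7 for 5 symbols of the SERPINA3 family, which in cattle is a row of near-identical copies. The log2 fold changes of these copies were between −0.24 and 0.26, all groups overlapped, and the array may not separate one copy from another.

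By clade, 3 of 12 transcript clusters of clade B were called, 25.0%, and 1 of 14 of clade A, 7.14%, which is near the 7.49% of all transcript clusters. In clade A 12 of 14 had both means at or below the background level, in clade B 6 of 12. Of the 11 members that are not serpins 3 were called, all higher, which is 27.3% where 3.97% of all transcript clusters were called higher. Their groups did not overlap in 9, 81.8%, against 37.3% of all transcript clusters.

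**Figure D3:**
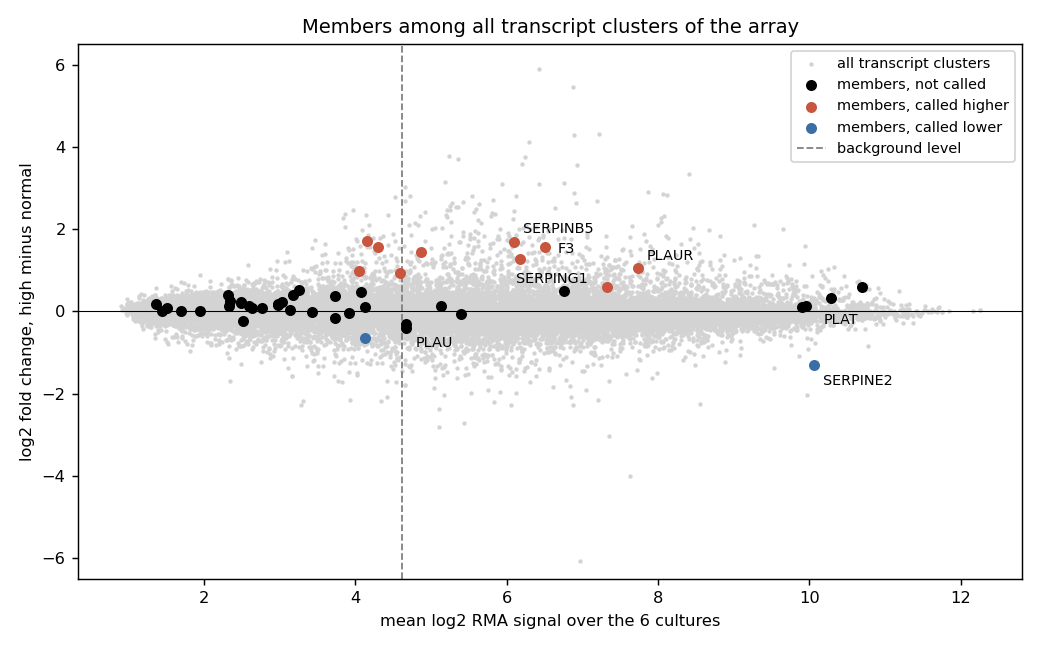
Log2 fold change (y axis) against the mean log2 RMA signal over the 6 cultures (x axis) for all 26773 transcript clusters (grey) and the members (red called higher, blue called lower, black not called), with a dashed line at the background level of 4.62. SERPINE2 lies among the strong signals below 0, while most uncalled members lie left of the dashed line.

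Genes that lie beside each other on the bovine assembly ARS-UCD2.0 did not always share a change. SERPINB8 and LOC281376, the gene RefSeq gives for cluster 12809196, are neighbours, and their log2 fold changes were 0.587 and 0.584. SERPINB2 and SERPINB10 are neighbours too, with log2 fold changes of 1.70 and 0.40, of which that of SERPINB10 was not called (adjusted p = 0.0849). SERPINB5 at 1.68 lies beside SERPINB12 at 0.19, and SERPINA14 at 1.45 lies between SERPINA11 at 0.38 and SERPINA12 at 0.09. SERPINF1 and SERPINF2, with 1.57 and −0.05, are separated only by SMYD4. F2R at −0.31 lies between F2RL2, which is no member, at −0.31 and F2RL1 at 0.94. Of the neighbours given with a value here, those that were not called were at or below the background level at both densities, except for LOC281376, F2R and F2RL2.

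Of 58 other genes of coagulation, fibrinolysis and their proteases, 9 were called, 15.5% compared with 7.49% of all transcript clusters, 6 higher and 3 lower. Their median log2 fold change was 0.12. Among 23 coagulation genes, F5 and FGL2 rose and FGG fell. F5 encodes factor V, the cofactor of factor X, and changed from 6.94, 6.87 and 7.02 to 9.10, 9.16 and 9.10, a log2 fold change of 2.18 (SE 0.07, adjusted p = 1.07e-05). This was larger than the change of any member. FGL2, a membrane protein that can cleave prothrombin, had signals of 4.61 ± 0.23 and 6.56 ± 0.29 (SD, n = 3) and rose by 1.95 on the log2 scale (adjusted p = 3.23e-04). FGG, the gamma chain of fibrinogen, fell by 0.60 on the log2 scale (adjusted p = 0.014), from 5.71 to 5.11. Its call was lost in 3 of the 6 fits that left out 1 culture, those without normal density replicate 1 or 3 or high density replicate 1.

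Among 16 genes of plasminogen binding, clearance and fibrinolysis control, VLDLR and A2M were up-regulated. VLDLR, a receptor that takes up complexes of proteases and serpins, gave 7.71, 7.76 and 7.68 at normal density and 9.31, 9.39 and 9.32 at high density, so that it rose by 1.63 on the log2 scale (SE 0.07, adjusted p = 1.78e-05). LRP1, the related and better known uptake receptor, had group means of 9.52 and 9.63 and was not called (log2 fold change 0.11, adjusted p = 0.409). A2M, a broad protease trap, rose by 0.66 (adjusted p = 0.00184), and by 0.581, below the FC threshold, when normal density replicate 3 was omitted. The plasminogen binding proteins ANXA2, with a log2 fold change of −0.34, and S100A10, its partner, with 0.33, were not called (adjusted p = 0.00994 and 0.0581).

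Among 15 proteases and Kunitz inhibitors, PRSS23, a secreted serine protease, rose by 0.88 (adjusted p = 4.50e-04) and SPINT1, an inhibitor of hepatocyte growth factor activator, by 1.44 (adjusted p = 6.44e-04), while C1S and C1R fell as given above. HTRA1, a secreted protease of the matrix, had group means of 11.12 at both densities. None of the 4 other protease-activated and kinin receptors was called.

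**Figure D4:**
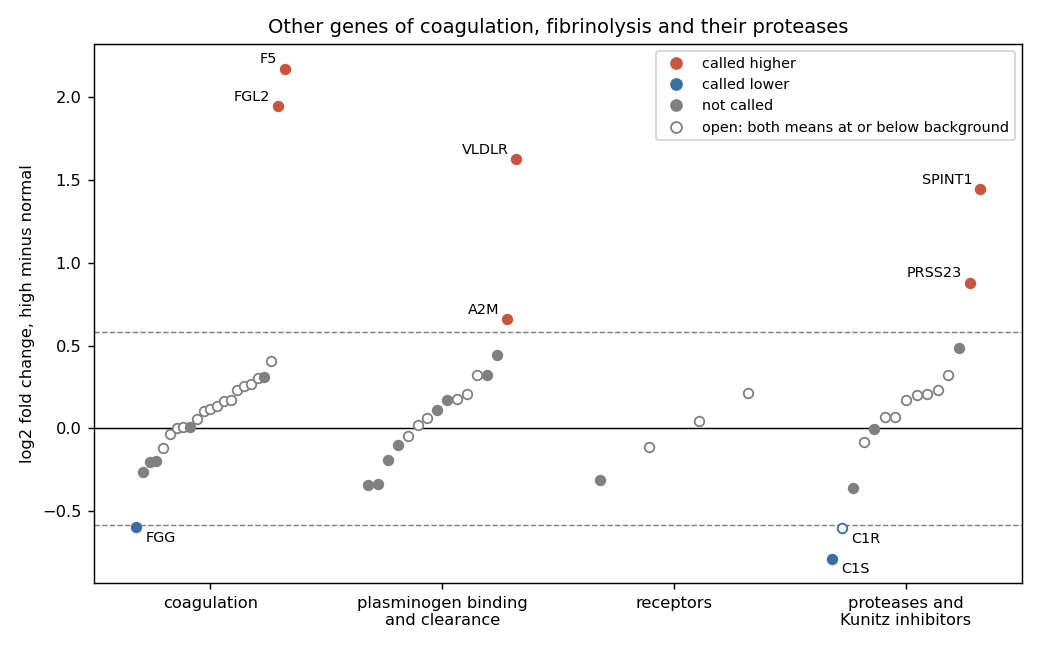
Log2 fold change (high minus normal density, y axis) of 58 other genes in 4 lists, sorted by value within each list, with dashed lines at the FC threshold, red for called higher, blue for called lower, grey for not called and open circles for both means at or below the background level. F5 at 2.18 and FGL2 at 1.95 stand above the coagulation genes, of which most others lie near 0.

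The arrays had median log2 signals between 4.34 and 4.43. High density replicate 2 stood apart, with an array weight in limma of 0.29 against 0.82 to 1.66 for the other arrays, and without it 11 members were called, since SERPINB8 and SERPINC1 were lost and cluster 12809196 was gained. Of 10 granulosa markers, 9 were above the background level at each density, with CYP19A1 below it at high and HSD17B1 below it at normal density. FSHR, CYP19A1, INHA, INHBA, FOXL2 and FST fell at high density, HSD17B1 rose by 1.26 on the log2 scale (adjusted p = 5.90e-04), and AMH, NR5A1 and CYP11A1 were not called. Leukocyte (9), platelet (6) and hepatocyte (5) markers were all at or below the background level at both densities, and none was called. Of 9 endothelial markers only VWF and CLDN5 were above it, and only CLDN5 was called, with group means of 4.71 and 7.53. The other 8 had log2 fold changes of either sign, from −0.36 (TEK) to 0.48 (KDR). The summed level of the 9, with CLDN5 in it, was between 6.91 and 6.94 (log2) at normal and between 8.09 and 8.28 at high density, with PECAM1 and CDH5 at group means of 2.66 and 2.77 and of 2.40 and 2.36. Of 5 theca markers INSL3 and PTCH1 were above the background level. INSL3 rose, from a group mean of 7.20 to 9.02, and CYP17A1 was at 2.93 at both densities. LHCGR fell by 1.197 on the log2 scale (adjusted p = 3.23e-04) with both means below the background level. The paper reports LHCGR as a gonadotropin receptor gene of its granulosa cells as well. The summed level of the 5, with INSL3 in it, was between 7.93 and 8.04 at normal and between 9.20 and 9.45 at high density. Of 6 surface epithelium markers 2 were above the background level at normal and 3 at high density, and none was called. All 6 had log2 fold changes above 0, from 0.08 to 0.449 (WT1, adjusted p = 0.00777). Their summed level was between 7.233 and 7.335 at normal and between 7.444 and 7.515 at high density. The part of the endothelial, theca and surface epithelium marker changes in the members' values was not tested.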

How the data were processed

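The authors scanned 1 array per culture and made the deposited log2 signals in Expression Console with RMA (background reduction, normalization and gene-level summary). RMA shrinks differences of weak signals, and its summary gives no detection call. The genome build of the array annotation is not given in the sources used here. The table holds 26773 transcript clusters, counting the 82 reporter control rows, and 0 columns of other samples. No further normalization was applied.

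High and normal density were compared with limma 3.58.1 in R 4.3.3 (lmFit, eBayes, no covariates) over all transcript clusters. Where a symbol has several, each was kept. Names were compared with RefSeq by accession (32 of 47 members matched) and by symbol. By the rule for members 1 more transcript cluster belongs to them; it is not reported here and was left out of their counts and plots, but not of the fits. The members and lists were chosen with earlier results of these data known. Values were given for called members, for uncalled activators, inhibitors and coagulation members above background, for PLG and for called genes of the lists. Other members named were chosen after their values were seen. The fits were tested on simulated data. Alternatives were the methods' analysis of variance, other variance settings, scalings, filters and thresholds, the replicate number as a block, and each culture left out. The number of arrays limits the precision. No pairing of the cultures by replicate number was detected. Plots were made in Python 3.11.15 (matplotlib 3.10.9).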

Additional observations from a re-analysis of the deposited data

How the results depend on the processing

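The count of 12 called members was between 10 and 13 under the other tests, variance settings, scalings and filters and when single cultures were left out, and 19 without an FC threshold, of which 16 were higher. The count of members called lower was 2, and between 1 and 2 when single cultures were left out (1 without normal density replicate 1 or high density replicate 2). It was 1 with the methods' analysis of variance, with array weights, with a filter at the background level and when members with both means at or below that level were left out, an alternative chosen after seeing the data, because SERPINC1 was then not called or not counted. With the analysis of variance SERPINB2 (12807673) was also not called. The count of 9 of 58 other pathway genes was 15 without an FC threshold, where 5106 of all 26773 transcript clusters were called. In the other settings it was between 6 (normal density replicate 3 left out) and 10 (high density replicate 2 left out). The FDR threshold of 0.01 left all 12 members called. With the replicate block 12 members were called as well. Deviations of same-numbered cultures correlated at 0.05, −0.05 and −0.04, so no pairing by number was detected. Of the called members, 10 were called in all 11 limma fits over the whole table, the exceptions being SERPINB8 and SERPINC1. No fold change of a called member changed sign. Signals at or below the background level, 28 of 47 members, limit what could be detected.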
